A study of Arabidopsis thaliana with 16 samples.

Results

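Transcripts of 6 genes known as markers of sugar starvation were followed in dark-grown Arabidopsis thaliana seedlings of the Landsberg erecta strain before and after a move to light. The genes are ASN1 (DIN6, AT3G47340, probe set 252415_at), SEN1 (DIN1, AT4G35770, 253161_at), DIN10 (AT5G20250, 246114_at), AT1G80440 (260287_at), AT2G32150 (265680_at) and AT2G20670 (265387_at). They are 6 of the 22746 probe sets of the Affymetrix ATH1 array that are not controls. They were picked by probe set and locus, with their levels in the dark and early-light apex already known. All 6 were among the 18237 probe sets bright enough to test. The choice names no contrast. The levels of the 6 in the dark, 1 h and 2 h apex were taken as used for it. These levels, and every difference of the 6 that uses them, are given as a description with no test. Whether the other arrays also entered the choice is not recorded, so the tests on them are not independent of it.

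The 16 arrays form 10 groups. Shoot apex from darkness, from 1 h and from 6 h of white light has 2 arrays each, and shoot apex from 2, 24, 48 and 72 h has 1 array each. Cotyledon blade, without petiole and tip, has 2 arrays each for darkness, 1 h and 6 h. All seedlings grew on agar with mineral salts and no sucrose, got 30 min of light to start germination and then stood for 3 days in darkness at 21 °C, so the medium held no sugar in any group. Each sample pooled about 1500 to over 4000 seedlings from several plates and experiments, and only 1 tissue was cut from each seedling. The apex samples of 48 and 72 h also held developing leaf primordia. Time in light cannot be told apart from seedling age, since no dark sample was taken after the move. In whole tissue, fewer cells that express a gene and less RNA of it per cell cannot be told apart.

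When plant cells run short of sugar, the protein kinase SnRK1, a relative of yeast Snf1 and animal AMPK, becomes active and, through bZIP transcription factors, turns on genes that save carbon and recycle amino acids. The DIN (dark-inducible) genes are classical readouts of this state: they rise in darkness or with a block of photosynthesis and fall when sugar is fed. ASN1 makes asparagine, which carries nitrogen with little carbon. SEN1 encodes a rhodanese-like protein of dark-treated and ageing leaves, and DIN10 a member of the raffinose synthase family. AT1G80440 encodes a Kelch-repeat F-box protein, a ubiquitin ligase subunit that targets type-B cytokinin response regulators and phenylalanine ammonia-lyase. AT2G32150 encodes a hydrolase of the haloacid dehalogenase superfamily, and the function of AT2G20670 is not known.

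In the apex all 6 transcripts were high in the dark, far lower in the first hours of light, and higher again on each of the following days. The median level of the 6, as a share of each gene's own dark apex mean, was 6.54% at 1 h, 3.15% at 2 h, 8.87% at 6 h, 45.6% at 24 h, 72.1% at 48 h and 91.5% at 72 h. In the cotyledon there was no such common course: at 6 h SEN1, ASN1, AT2G32150 and AT1G80440 were below their dark level, AT2G20670 was above it and DIN10 was close to it. Values below are MAS5 signals on a linear scale, with every array given, and no gene's signal is set against another's.

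**Figure D1:**
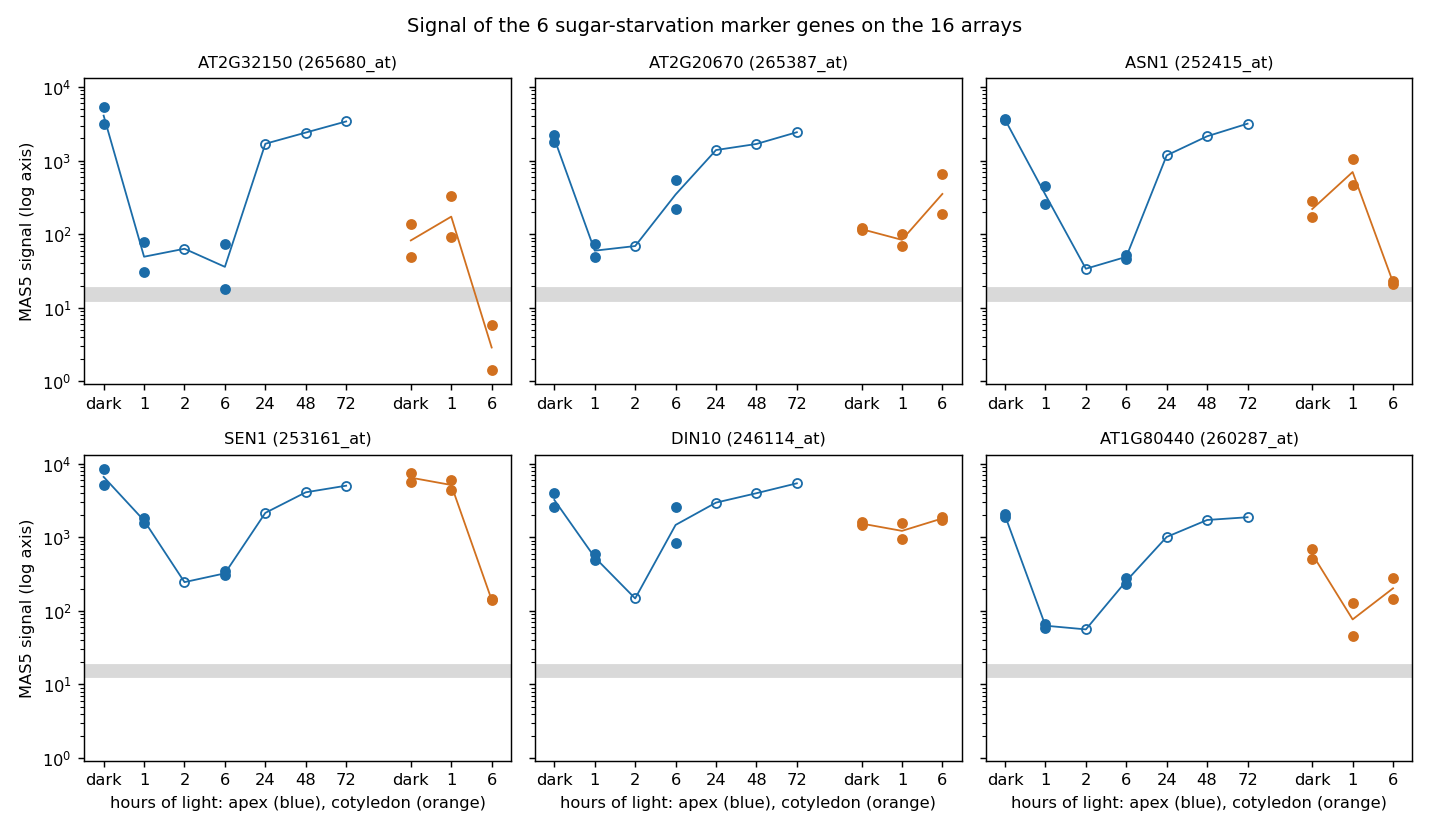
MAS5 signal (log axis) of each of the 6 genes on the 16 arrays, by hours of light, with apex in blue and cotyledon in orange. Points are arrays, open where a group has 1 array, lines join group means of log2 signal, and the grey band spans the 35th percentile of the 16 arrays (12.43 to 18.58). Every gene is far lower in the apex at 2 h than in the dark and higher again at 24 h, while the cotyledon courses differ from gene to gene.

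ASN1 had signals of 3626 and 3594 in the dark apex, then 455 and 259 at 1 h, 33.9 at 2 h, and 52.6 and 46.1 at 6 h. It then stood at 1178, 2141 and 3178 at 24, 48 and 72 h. No early-light array came near the dark arrays, the 2 h array lay below both 1 h arrays, and even the 72 h array stayed just below the dark. In the cotyledon the signals were 284 and 170 in the dark, 1058 and 463 at 1 h, and 23.2 and 21.2 at 6 h. Both 1 h arrays thus lay above both dark arrays, and both 6 h arrays lay far below all 4 others.

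SEN1 had 5159 and 8471 in the dark apex, 1578 and 1800 at 1 h, 246 at 2 h, and 345 and 302 at 6 h, followed by 2144, 4080 and 5021 at 24, 48 and 72 h. Its first-hour difference was the smallest of the 6, at 3.92-fold, and the 2 h array lay far below both 1 h arrays. In the cotyledon it had 7353 and 5666 in the dark, 6013 and 4380 at 1 h, and 144 and 138 at 6 h. The dark and 1 h cotyledon arrays overlapped, and both 6 h arrays lay far below them.

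DIN10 had 2587 and 3988 in the dark apex, 484 and 586 at 1 h, 147 at 2 h, and 829 and 2607 at 6 h. The 6 h arrays lay far apart, and the higher one was above the lower dark array, so these groups overlapped. At 24, 48 and 72 h DIN10 had 2955, 3967 and 5405, with the 72 h array above both dark arrays. In the cotyledon its 6 arrays stayed within a narrow band, with 1466 and 1607 in the dark, 1575 and 946 at 1 h, and 1885 and 1724 at 6 h.

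AT1G80440 had 1899 and 2041 in the dark apex, 66.7 and 59.2 at 1 h, 55.9 at 2 h, 283 and 228 at 6 h, and 1010, 1717 and 1870 at 24, 48 and 72 h. Both 6 h arrays were already above the 1 h and 2 h arrays. In the cotyledon it had 692 and 503 in the dark, 129 and 45.2 at 1 h, and 146 and 279 at 6 h. All 4 lit cotyledon arrays lay below both dark arrays, with the lowest values at 1 h.

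AT2G32150 had 3106 and 5382 in the dark apex, 78.9 and 31.0 at 1 h, 63.4 at 2 h, and 72.5 and 17.9 at 6 h, before 1694, 2404 and 3408 at 24, 48 and 72 h. From 1 h to 6 h its level stayed low, and these groups overlapped. The lower 6 h value, 17.9 on replicate 2, lay just above the 35th percentile of its array (15.7), so folds against the 6 h apex are uncertain. In the cotyledon it had 49.6 and 136 in the dark, 327 and 91.8 at 1 h, and 1.42 and 5.88 at 6 h. Both 6 h arrays were below their array's 35th percentile, the floor used for folds here, so only a bound holds there.

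AT2G20670 had 1772 and 2222 in the dark apex, 72.7 and 49.0 at 1 h, 69.0 at 2 h, and 552 and 217 at 6 h. At 24, 48 and 72 h it had 1392, 1684 and 2430, the last above both dark arrays. In the cotyledon it had 121 and 114 in the dark, 69.6 and 101 at 1 h, and 189 and 658 at 6 h. Here the 6 h arrays were the highest of the tissue, although they differed more from each other than those of any other cotyledon group.

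The first hour of light in the apex, whose values were known when these genes were picked, is described first. All 6 were lower on both 1 h arrays than on both dark arrays, as were 28.3% of all probe sets tested. Taken between means of log2 signal, the level was lower by a fold of 82.7 for AT2G32150, 33.2 for AT2G20670, 31.3 for AT1G80440, 10.5 for ASN1, 6.03 for DIN10 and 3.92 for SEN1. Among the 18237 probe sets ranked by the size of this fall, AT2G32150 was at rank 2, AT2G20670 at 9, AT1G80440 at 13, ASN1 at 97, DIN10 at 321 and SEN1 at 678. On the single 2 h array all 6 were below both dark arrays, against 39.1% of probe sets, with folds between 21.8 and 106. ASN1, DIN10, SEN1 and, by little, AT1G80440 were lower at 2 h than on both 1 h arrays, and AT2G32150 and AT2G20670 lay between their 1 h arrays.

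At 6 h the 6 genes had parted. All but DIN10 were still below both dark arrays, against 31.4% of probe sets, with folds from 5.73 for AT2G20670 to 114 for AT2G32150. The fold of AT2G32150 rests in part on a 6 h value close to the floor. Compared with 1 h, ASN1 and SEN1 were lower on both 6 h arrays, by 6.97-fold and 5.22-fold (25.7% of probe sets were lower on every array). AT2G20670, AT1G80440 and DIN10 were higher on both, by 5.80-fold, 4.05-fold and 2.76-fold (23.6% were higher on every array). As a share of the dark apex mean, the 6 h level was 1.06% for AT2G32150, 1.37% for ASN1, 4.75% for SEN1, 13.0% for AT1G80440, 19.3% for AT2G20670 and 52.3% for DIN10.

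**Figure D2:**
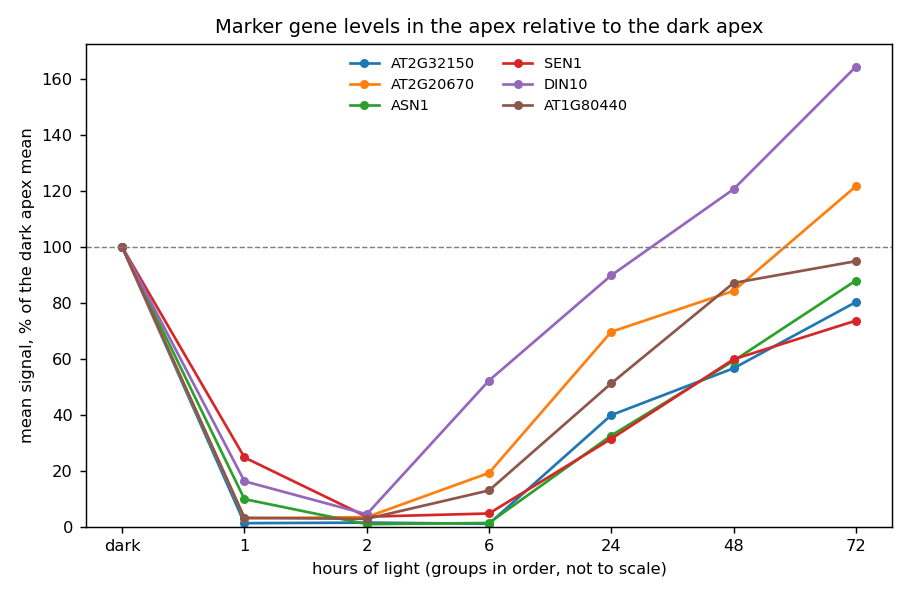
Mean signal of each gene in the apex as a percentage of its own dark apex mean, by hours of light (groups in order, not to scale). The dashed line marks the dark level, and all 6 genes are under 5% at 2 h, after which DIN10 and AT2G20670 pass the dark level by 72 h and the other 4 reach 73.7% to 94.9%.

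The return of these transcripts was tested as the mean of 24, 48 and 72 h (late light) against 6 h. The levels of the dark, 1 h and 2 h apex do not enter this difference. The dark and 1 h apex arrays do enter the shared spread behind its p-values. The limma model was fitted across all probe sets, and a change was called at a Benjamini-Hochberg adjusted p under 0.05. All 6 rose, where 10.3% of all probe sets were called higher, and the median log2 change was 2.99 for the 6 against 0.13 for all probe sets. AT2G32150 rose by 6.06 ± 0.73 (SE, log2, limma adjusted p = 0.000132), ASN1 by 5.34 ± 0.34 (adjusted p = 7.33e-07) and SEN1 by 3.45 ± 0.26 (adjusted p = 5.05e-06). The change of AT2G32150 lay between 5.05 and 7.07 when single arrays were left out. AT1G80440 rose by 2.54 ± 0.37, AT2G20670 by 2.37 ± 0.46 and DIN10 by 1.44 ± 0.39 (limma adjusted p = 0.000506, 0.00300 and 0.0205).

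On single arrays, all 3 late arrays lay above both 6 h arrays for 6 of 6 genes, against 26.2% of probe sets. Their signals also rose in order from 24 to 48 to 72 h for 6 of 6, against 23.2% of probe sets. Against the dark, all but DIN10 were below both dark arrays at 24 h and again at 48 h (36.4% and 36.9% of probe sets were), with folds up to 3.08 and 1.70. At 72 h ASN1, SEN1 and AT1G80440 were still below both dark arrays (37.0% of probe sets were), by 1.05-fold to 1.32-fold. AT2G20670 and DIN10 were above both (40.6% of probe sets were), by 1.22-fold and 1.68-fold. The late groups have 1 array each, so the fit lent them the spread of the 6 groups with 2 arrays. The call for DIN10 was lost without apex 6 h replicate 1, the lower of its 6 h arrays, where its change was 0.61, and without the 72 h array, where it was 1.22. It was also lost with the arrays centred on their medians (1.17, limma adjusted p = 0.0713) and without the intensity trend of the variance (1.44, adjusted p = 0.0832). The summed signal of the apex markers CLV3 and LAS was 16.6 on the 72 h array, where the 6 genes were at their late maximum, and 45.1 to 74.7 on the other apex arrays. CLV3 was above the floor on 4 of 10 apex arrays, and LAS was above it on 5 of 6 cotyledon arrays too. Their sum is thus a weak gauge of apex content. The part of cell composition in the late rise was not tested. Without both apex dark replicate 2 and apex 6 h replicate 2, which stand apart from the other arrays, AT2G20670 changed by 1.69 with a limma adjusted p of 0.0613.

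The cotyledon, which holds the seed's reserves and takes up photosynthesis in the light, was the other tissue sampled. After 1 h ASN1 rose and AT1G80440 fell, while AT2G32150, AT2G20670, SEN1 and DIN10 were not called. ASN1 rose by 1.67 ± 0.37 (SE, log2), or 3.19-fold (limma adjusted p = 0.0284), where 1.51% of probe sets were called higher. AT1G80440 fell by 2.95 ± 0.41 on the log2 scale, or 7.72-fold (limma adjusted p = 0.000968), where 0.674% were called lower. The median log2 change of the 6 was -0.33, and that of all probe sets -0.12.

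The fall of AT1G80440 was called in all 20 alternative analyses, and the rise of ASN1 in 12 of them. Without cotyledon 1 h replicate 1 the change of ASN1 was 1.08, and without cotyledon dark replicate 2 it was 1.30. Its call was also lost without either apex dark array and without either cotyledon 6 h array, which enter through the shared spread. The log2 changes not called at 1 h were 1.07 for AT2G32150 (95% interval -0.65 to 2.80), -0.48 for AT2G20670 (-1.56 to 0.59), -0.33 for SEN1 (-0.94 to 0.28) and -0.33 for DIN10 (-1.25 to 0.59). On every array, ASN1 was lower than in the dark in the apex and higher in the cotyledon, a pairing shown by 1 of the 6 genes and 2.66% of all probe sets.

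After 6 h SEN1, ASN1 and AT2G32150 were far lower in the cotyledon, and AT1G80440 was still lowered: 4 of 6 fell, where 7.73% of probe sets were called lower. SEN1 fell by 5.52 ± 0.28 on the log2 scale, or 45.8-fold (limma adjusted p = 2.42e-07), and ASN1 fell by 3.31 ± 0.37, or 9.92-fold (limma adjusted p = 5.55e-05). AT2G32150 was at least 5.62-fold lower, with the dim arrays taken at their 35th percentile. Its limma adjusted p of 0.00100 is for the deposited signals, not for this bound. AT1G80440 fell by 1.55 ± 0.41, or 2.92-fold (limma adjusted p = 0.0193). All 4 were lower on every array, against 29.9% of probe sets. The call for AT1G80440 was lost without cotyledon 6 h replicate 1, where the change was -1.08, without cotyledon dark replicate 1, where it was -1.32, and without the intensity trend (-1.55, limma adjusted p = 0.0938).

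AT2G20670 went the other way. It rose by 1.59 ± 0.50, or 3.01-fold (limma adjusted p = 0.0463), where 7.79% of probe sets were called higher. This call stood in only 7 of 20 alternative analyses, and without cotyledon 6 h replicate 2 the change was 0.69. DIN10 was not called, at 0.23 with a 95% interval from -0.69 to 1.15, and both of its 6 h arrays, like those of AT2G20670, lay above both dark arrays, against 25.9% of probe sets. The median log2 change of the 6 genes was -2.43, and that of all probe sets -0.08.

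**Figure D3:**
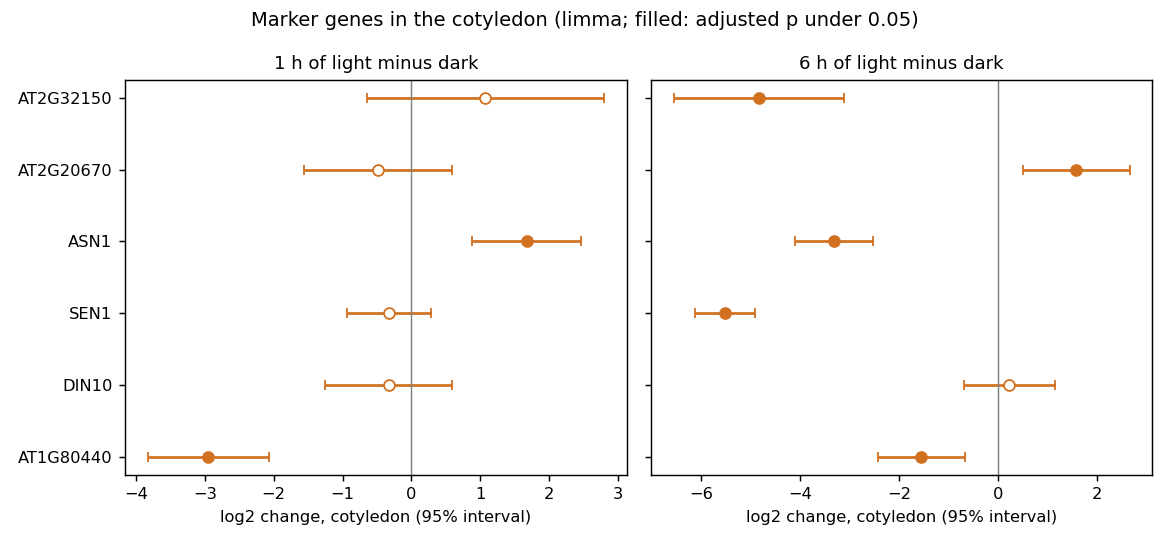
Log2 change in the cotyledon after 1 h (left) and 6 h (right) of light against the dark for the 6 genes, with 95% intervals from limma; filled points have an adjusted p under 0.05. At 1 h ASN1 lies above 0 and AT1G80440 below it, and at 6 h SEN1, AT2G32150, ASN1 and AT1G80440 lie below 0 and AT2G20670 above it.

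Between 1 h and 6 h in the cotyledon, SEN1, ASN1 and AT2G32150 fell, AT2G20670 and AT1G80440 rose, and DIN10 was not called. SEN1 fell by 5.19 and ASN1 by 4.98 on the log2 scale (SE 0.28 and 0.37, limma adjusted p = 1.09e-06 and 1.03e-05). AT2G32150 was at least 11.8-fold lower (limma adjusted p = 0.000497 for the deposited signals). Thus 3 of 6 fell, where 5.17% of probe sets were called lower. AT2G20670 rose by 2.07 ± 0.50 and AT1G80440 by 1.40 ± 0.41 (limma adjusted p = 0.0175 and 0.0430), where 5.21% of probe sets were called higher.

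The rise of AT1G80440 was called in 8 of 20 alternative analyses. Without cotyledon 1 h replicate 2 it was 0.65, and without cotyledon 6 h replicate 2 it was 0.94. The rise of AT2G20670 was called in 17 of 20, and without cotyledon 6 h replicate 2 it was 1.17. Its call was also lost without cotyledon 1 h replicate 1, at 1.80. The change of DIN10 was 0.56 (95% interval -0.36 to 1.48).

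Apex and cotyledon in the dark are compared as a description, since the dark apex was taken as used in picking the genes. ASN1, AT2G32150, AT2G20670, AT1G80440 and DIN10 were higher on both apex arrays than on both cotyledon arrays, against 31.5% of probe sets. The folds were 49.7 for AT2G32150, 16.9 for AT2G20670, 16.4 for ASN1, 3.34 for AT1G80440 and 2.09 for DIN10. SEN1 was alike in both tissues, at 1.02-fold and with overlapping arrays. At 1 h the order had turned for some genes. ASN1, SEN1, DIN10 and AT2G32150 were lower on both apex arrays, against 20.8% of probe sets, by 2.04-fold to 3.51-fold, and AT1G80440 and AT2G20670 overlapped.

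At 6 h the tissues were tested against each other, and 2 of 6 genes were called higher in the apex, where 2.3% of probe sets were. SEN1 was 2.29-fold higher in the apex, at 1.20 ± 0.28 (SE, log2, limma adjusted p = 0.0372), a call kept in 10 of 20 alternative analyses. The value of SEN1 lay between 1.10 and 1.29 in all 20, but the call was lost without any single array of either 6 h group or of the 1 h apex. AT2G32150 was at least 2.46-fold higher in the apex. Its limma adjusted p of 0.0256 is for the deposited signals, a log2 difference of 3.64 that rests on cotyledon values below the floor. With dim values raised to the floor the difference of AT2G32150 was 1.30 and not called (limma adjusted p = 0.316). Leaving out apex 6 h replicate 1 gave 2.63 and cotyledon 6 h replicate 1 gave 2.62, neither of them called.

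The other 4 genes were not called between the tissues at 6 h. ASN1 was at 1.15 with a 95% interval from 0.36 to 1.95 (limma adjusted p = 0.111), higher on both apex arrays. AT1G80440, AT2G20670 and DIN10 overlapped, at 0.33, -0.03 and -0.29. Their 95% intervals were -0.55 to 1.21, -1.10 to 1.05 and -1.22 to 0.63.

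Over all 10 groups, the mean log2 signal of AT2G32150, ASN1, SEN1 and AT1G80440 was highest in the dark apex, and that of AT2G20670 and DIN10 in the 72 h apex. The lowest group was the 6 h cotyledon for AT2G32150, ASN1 and SEN1, the 2 h apex for DIN10 and AT1G80440, and the 1 h apex for AT2G20670. Several neighbours in these orders overlapped. For AT2G32150 the dark and 72 h apex overlapped, as did the run from the 1 h cotyledon down to the 6 h apex. For SEN1 the dark apex, dark cotyledon, 1 h cotyledon and 72 h apex overlapped in turn. For DIN10 the 24 h, dark and 48 h apex overlapped, as did the dark cotyledon, 6 h apex and 1 h cotyledon. For AT2G20670 the 6 h groups of the tissues overlapped, as did 2 h and 1 h in the apex. For AT1G80440 the 6 h groups of the tissues overlapped, as did the 1 h groups, and for ASN1 the 1 h apex and the dark cotyledon.

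As profiles over the 10 group means, the 15 pairs of genes had Pearson correlations from 0.32 to 0.93, with a median of 0.71. The closest pair was AT2G32150 and ASN1 (0.93), followed by AT2G20670 and AT1G80440 (0.92), and the least alike was AT2G20670 and SEN1 (0.32). These correlations rest on the same 16 arrays and include the dark apex, taken as used in picking the genes, so they only describe the courses.

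Outside the 6, the single-gene probe sets with courses most like their mean standardised profile were AT1G03610 (r = 0.986), AT2G40420 (0.982), AT5G47390 (0.971), AT3G07350 (0.966) and AT4G31410 (0.965). By Spearman's rho over the same 10 means, AT1G03610 and AT2G40420 again came first (both 0.988). The nearest single neighbour of ASN1 was MCCA (0.979), a subunit of the leucine-degrading enzyme methylcrotonyl-CoA carboxylase. The nearest neighbours of the others were AT4G27450 for SEN1 (0.984), AT4G32060 for AT2G32150 (0.982), CCL for DIN10 (0.972), AT5G19120 for AT1G80440 (0.972) and AT2G27340 for AT2G20670 (0.960).

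Other genes of the starvation response were read from lists drawn up by function, with earlier results of these data known. Their tests also use the dark and 1 h apex arrays, so the calls are not independent evidence. Of the 89 genes on the lists, 19 had a tested probe set matched to them alone in the annotation used, and these are called measured. That annotation matched 13513 of the 22746 probe sets to 1 gene. The other listed genes may thus have probe sets on the array and were not analysed here. In the apex, 10 of the 19 fell at 1 h and 0 rose, where 5.13% of all probe sets were called lower and 5.69% higher. Their median log2 change was -1.26, against 0.00 for all probe sets. At an unadjusted p under 0.05, 11 of the 19 were lower and 0 higher. The share of all probe sets at this looser threshold was not computed, so these counts have no background.

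The list of amino acid breakdown held the most measured genes. Starved plant cells respire branched-chain amino acids and lysine in place of sugar, and 7 of the 8 measured genes fell in the apex at 1 h. LKR/SDH, the first enzyme of lysine breakdown, fell by 4.00 ± 0.30 on the log2 scale (limma adjusted p = 2.52e-06), from 799 and 1497 to 63.8 and 73.1. MCCA fell by 3.74 ± 0.30 (adjusted p = 4.71e-06), and IVD, the isovaleryl-CoA dehydrogenase of leucine breakdown, by 2.97 ± 0.32 (adjusted p = 5.09e-05). The 1 not called was AT5G09300, at 0.74 ± 0.36. At 6 h 6 of the 8 fell, where 12.9% of probe sets were called lower, with MCCA at -5.56, IVD at -4.35 and LKR/SDH at -4.02 on the log2 scale.

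In the cotyledon 0 of these 8, and 0 of all 19 genes, were called at 1 h by limma. Of all probe sets, 0.674% were called lower there and 1.51% higher, so 0 calls among 19 genes is near the background. At an unadjusted p under 0.05, 1 of the 19 was lower and 1 higher, again with no background share computed. MCCA was at 0.75 ± 0.30, with 276 and 296 in the dark against 673 and 345 at 1 h, and AT3G15450 at -1.84 ± 0.62. Without cotyledon 1 h replicate 1, AT3G15450 was at -3.24 and was called. At 6 h 5 of the 8 genes of amino acid breakdown fell in the cotyledon, where 7.73% of probe sets were called lower. MCCA fell by 3.24 ± 0.30, IVD by 2.64 ± 0.32 and ETFBETA, which passes electrons from amino acid breakdown to respiration, by 2.51 ± 0.34 (limma adjusted p = 1.73e-05, 9.67e-05 and 0.000216).

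**Figure D4:**
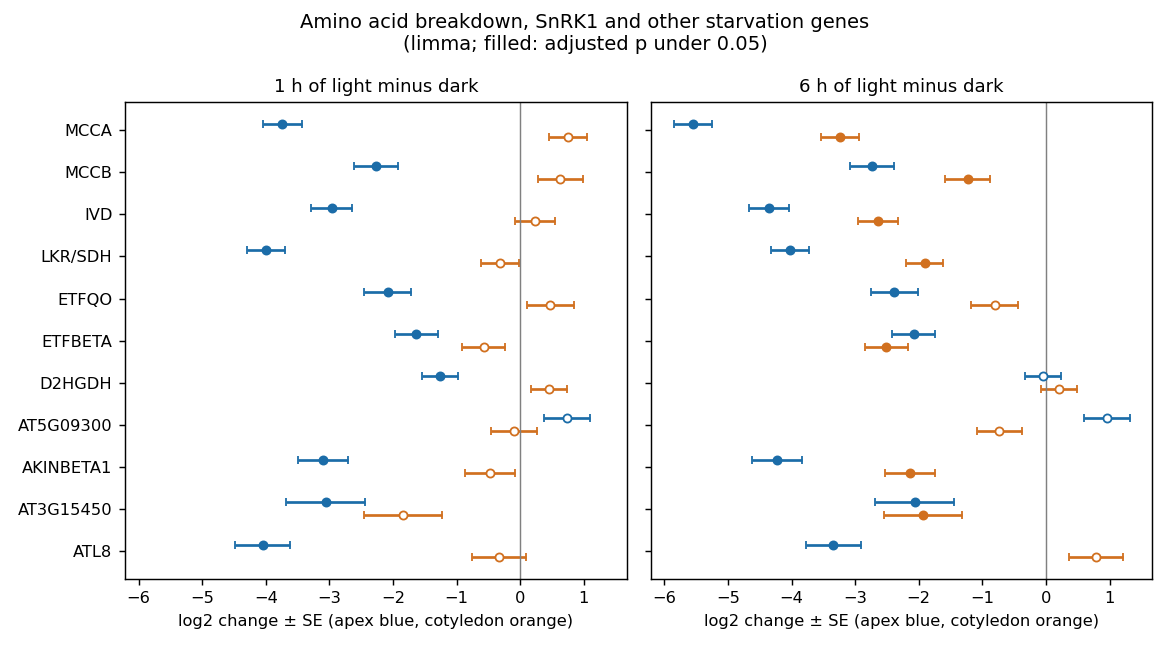
Log2 change ± SE after 1 h (left) and 6 h (right) of light against the dark for the genes of amino acid breakdown, AKINBETA1 and the other starvation genes, with apex in blue and cotyledon in orange; filled points have a limma adjusted p under 0.05. At 1 h 10 of the 11 apex values are filled and lie below 0, and no cotyledon value is filled. The other measured genes, AKINBETA2, AKINBETA3, BZIP44, BZIP53, ASPGA1, ASPGB1, APL3 and APL4, are not drawn. None of them was called at 1 h in either tissue, so 10 of all 19 measured genes were called lower in the apex. Of all probe sets, 5.13% were called lower in the apex at 1 h and 0.674% in the cotyledon. At 6 h MCCA, MCCB, IVD, LKR/SDH, ETFBETA, AKINBETA1 and AT3G15450 are filled below 0 in both tissues.

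The difference between the tissues in the 1 h response was tested as an interaction, chosen after the data had been seen. It was called for 7 of the 19 genes, all with the lower change in the apex, where 0.757% of probe sets were. Among these is ATL8, whose dark and 1 h cotyledon signals were all below the floor, so its cotyledon change was not measured and 6 calls rest on measured changes. For amino acid breakdown it was called for 5 of 8, led by MCCA (-4.49 ± 0.42, limma adjusted p = 0.000269), LKR/SDH (-3.68 ± 0.42, adjusted p = 0.000653) and IVD (-3.20 ± 0.45, adjusted p = 0.00336). At 6 h it was called for 3 of the 19, where 1.44% of probe sets were: ATL8, which again had no measured dark cotyledon level, MCCA (-2.32 ± 0.42, adjusted p = 0.0128) and LKR/SDH (-2.11 ± 0.42, adjusted p = 0.0199).

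Of the SnRK1 kinase and its bZIP partners, 5 of 17 listed genes had a probe set matched to them alone in the annotation used. AKINBETA1, a beta subunit of the kinase, fell in the apex by 3.11 ± 0.39 at 1 h and by 4.23 ± 0.39 at 6 h (log2, limma adjusted p = 0.000218 and 9.46e-06). It fell in the cotyledon by 2.14 ± 0.39 at 6 h (adjusted p = 0.00214), and its change there at 1 h was -0.48 ± 0.39. The other beta subunits were not called in the apex at 1 h, with AKINBETA2 at -0.12 ± 0.24 and AKINBETA3 at -0.38 ± 0.32. BZIP44 rose in the apex at 6 h by 1.46 ± 0.39 (limma adjusted p = 0.0135). It was at 0.81 when apex dark replicate 2 was left out and at 1.16 when apex 6 h replicate 2 was, and was called in neither case. BZIP53 was not called at 1 h, at -0.76 ± 0.26.

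Both measured genes of the further starvation list fell in the apex at 1 h, ATL8 by 4.05 ± 0.43 and AT3G15450 by 3.06 ± 0.62 (log2, limma adjusted p = 4.68e-05 and 0.00604). ATL8 encodes a RING ubiquitin ligase. Its 1 h apex signals (mean 15.6) lay at the floor, with 35th percentiles of 15.7 and 14.8 on these arrays, so the size of its apex fall is uncertain. Over the alternative analyses this change lay between -4.19 and -3.12. In the cotyledon its dark and 1 h signals were all below the array's 35th percentile, so no fold is given there at 1 h. The apex change of AT3G15450 was -2.63 with apex dark replicate 2 left out and -2.89 with apex 1 h replicate 1 left out, and was then not called. In the cotyledon at 6 h AT3G15450 was at -1.93 ± 0.62 (adjusted p = 0.0493), a call lost in 13 of 20 alternative analyses.

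Around asparagine, the asparaginase gene ASPGA1 fell in the cotyledon at 6 h by 1.30 ± 0.26 (log2, limma adjusted p = 0.00396), from 222 and 221 to 89.0 and 90.5, while ASPGB1 was at -0.06 ± 0.41. Neither was called in the apex at 1 h or 6 h. Of the sugar-induced genes, which move against the starvation markers when sugar is fed, APL3 encodes a large subunit of ADP-glucose pyrophosphorylase. APL3 was at least 2.07-fold lower in the 6 h cotyledon (limma adjusted p = 0.0276 for the deposited signals). This call was lost without any single array of the compared groups. APL4 was not called at 1 h or 6 h in either tissue. Its signals were below the floor on all cotyledon arrays and in the 1 h apex, so this does not show that it was unchanged. No gene of the lists for raffinose and galactinol synthesis or for the F-box relatives of AT1G80440 was matched alone to a probe set in the annotation used.

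In late light against 6 h in the apex, 8 of the 19 related genes rose and 0 fell, where 10.3% of probe sets were called higher and 8.5% lower. At an unadjusted p under 0.05, for which no background share was computed, 3 were lower. For amino acid breakdown 6 of 8 rose, with the smallest adjusted p for MCCA (4.49 ± 0.27), IVD (2.40 ± 0.29) and LKR/SDH (1.87 ± 0.27), with limma adjusted p-values of 6.86e-07, 0.000128 and 0.000462. AKINBETA1 rose by 3.15 ± 0.36 and ATL8 by 4.12 ± 0.39 (adjusted p = 8.90e-05 and 2.14e-05).

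Facts of the arrays that touch these values are few. The ratio of the 3' to the 5' GAPDH probe set, which rises with RNA degradation, was 5.40 in apex 6 h replicate 2, 0.832 to 1.85 in the other apex arrays and 1.73 to 4.72 in the cotyledon. The same ratio for actin was 30.4 in apex 6 h replicate 2, 5.20 to 14.1 in the other apex arrays and 6.71 to 14.2 in the cotyledon. The actin ratio thus did not part the tissues. The part of RNA quality in the results was not tested. The array least like those of other groups was apex dark replicate 2, at a mean correlation of 0.786. Of the 12 apex markers, 2 had a probe set matched to them alone in the annotation used. CLV3 was above the floor on 4 of 10 apex and 0 of 6 cotyledon arrays, and LAS on 9 of 10 and 5 of 6. The apex label thus rests on little here. Their summed signal was 8.50 to 50.7 in the cotyledon, and both were low on the 72 h apex array, as given above. Of 8 cotyledon markers, RCA and ICL were measured, and both were above the floor on every array of either tissue, with summed signals of 5122 to 7510 in the apex and 8614 to 16345 in the cotyledon. The 3 measured markers of stomata summed to 50.5 to 110 and 80.0 to 205. The part of cell composition in the results was not tested.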

How the data were processed

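The authors deposited linear MAS5 signal intensities, scaled to a trimmed mean of 100.01 per array (leaving out 2% at each end); the submitters' processing notes name GCOS and MAS5 without versions. They were log2-transformed with no pseudocount and no further scaling. To be tested, a probe set had to exceed the 35th percentile of the array on 2 or more of the 16 arrays, and 18237 of 22746 did. Of the 6 genes, 2 carry their name in the array annotation and 4 take it from the choice of probe sets.

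The model (limma 3.58.1, R 4.3.3) gave each of the 10 groups its own mean, with eBayes with an intensity trend (6 residual and 7.618 prior degrees of freedom), two-sided p-values and Benjamini-Hochberg adjustment over all 18237 within a comparison. It was also run on simulated data with known changes, in which observed spreads were shuffled among the probe sets. That run therefore did not test the intensity trend. The number of arrays limits the precision: the median SE of a log2 change between groups of 2 was 0.42. Nothing in the labels says that replicates came from separate plantings, so p-values measure the spread between these pooled samples.

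The 6 genes, the lists and the tests were chosen with earlier results of these data known, so no call here is independent evidence. Named beside the 6 were up to 3 called genes per list with the smallest adjusted p, further list genes with their values, the 5 most alike profiles and the nearest neighbour of each gene. Where all arrays of the dimmer group were at or below the 35th percentile, a fold is a lower bound against it. A limma p-value printed with such a bound tests the deposited signals, not the bound. Replicate numbers were not used to pair the arrays in the model. Of 15 correlations between same-numbered arrays' deviations, 1 exceeded 0.1 (range -0.128 to 0.125). Such correlations over all probe sets cannot exclude a batch shared by some arrays.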

Additional observations from a re-analysis of the deposited data

Results flagged for a closer look

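ASN1 stood on opposite sides of its dark level in the tissues after 1 h of light, lower in the apex (log2 -3.40) and higher in the cotyledon (log2 1.67) on every array. The difference was not tested, because the apex arrays were taken as used in picking the gene, and 2.66% of all probe sets showed this pairing.

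A difference between the tissues in the change after 1 h of light was called by limma's interaction term for 7 genes of the related lists, 6 of them with measured levels in both tissues. They are given here because the test called them, after their values had been seen, as apex change minus cotyledon change on the log2 scale. In leucine and lysine breakdown the differences were -4.49 for MCCA, -3.68 for LKR/SDH, -3.20 for IVD and -2.90 for MCCB, and for ETFQO, which feeds electrons from amino acid breakdown to respiration, -2.56. AKINBETA1 differed by -2.63. The fit gave -3.71 for ATL8, but all of its dark and 1 h cotyledon signals were below the 35th percentile, so this is not a measured difference between the tissues. The calls for MCCA and LKR/SDH stood in 20 of 20 alternative analyses, those for IVD and ATL8 in 19, for MCCB in 14, and for ETFQO and AKINBETA1 in 9 each.

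After 6 h the changes differed for LKR/SDH (-2.11) and MCCA (-2.32), each called in 15 of 20 alternative analyses. The fit gave -4.13 for ATL8, called in 19 of 20, again with no measured cotyledon level in the dark.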

How the results depend on the processing

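Across the alternatives, which were another scaling (quantile, median centring), no filter, dim values raised to the floor, a log2 offset of 16, no intensity trend, a replicate block and leaving out arrays, the count of the 6 genes that fell in the cotyledon was always 1 at 1 h and 3 at 6 h against 1 h. At 6 h against dark it was 4, or 3 with no trend (3 to 4 without single arrays). The 6 that rose in late light became 5 with median centring, no trend and without both arrays that stand apart (5 to 6 without single arrays). The 1 higher in the cotyledon at 1 h became 0 under quantile scaling and with no trend (0 to 1 without single arrays). The 1 higher at 6 h became 0 with median centring, no filter, no trend and the replicate block (0 to 1). The 2 higher at 6 h against 1 h became 1 under quantile scaling, median centring and without both arrays that stand apart, and 0 with no trend (0 to 2). The 2 higher in the 6 h apex than cotyledon became 1 with median centring, no filter, raised dim values, the offset and the replicate block, and 0 with no trend (0 to 2). Of the related genes, 7 to 11 fell and 0 to 1 rose in the apex at 1 h without single arrays, 8 to 9 fell and 0 to 1 rose at 6 h, 0 to 1 fell in the cotyledon at 1 h, 6 to 9 fell there at 6 h, and 7 to 9 rose and 0 to 2 fell in late light. The 1 that rose in the apex at 6 h became 2 under quantile scaling and 0 without both arrays that stand apart, and the 0 that fell in late light became 2 under quantile scaling and median centring and 1 with no trend. The cause was not tested. With apex dark replicate 2 left out, alone or together with apex 6 h replicate 2, DIN10 at 24 h against dark turned from -0.12 to 0.19 and AT2G32150 at 72 h against dark from -0.26 to 0.13.

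Over all probe sets, calls ranged from 722 to 2445 (1974 as reported) for the apex at 1 h, 2316 to 5221 (4594) at 6 h, 190 to 491 (399) and 1616 to 3266 (2829) for the cotyledon at 1 h and 6 h, 697 to 2286 (1893) between them, 1918 to 4147 (3429) in late light and 192 to 831 (604) between tissues at 6 h. Median centring moved all changes by up to 0.29 on the log2 scale, by 0.27 in late light and by -0.19 in the cotyledon at 1 h. Signals at or below the 35th percentile carry no order. Among the values given, this limits AT2G32150 and APL3 in the 6 h cotyledon and ATL8 in the early cotyledon. It also limits APL4 in the cotyledon and the 1 h apex. The replicate block changed no member call other than those given.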
